A study of Mus musculus with 32 samples.

Results

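The genes of oxidative phosphorylation were analysed in hippocampal RNA-seq libraries of 12-month-old mice. The members are the protein-coding genes whose names mark them as subunits of the mitochondrial complexes (mt-Nd, mt-Cytb, mt-Co and mt-Atp genes, Ndufa, Ndufb, Ndufc, Ndufs and Ndufv genes, Sdha to Sdhd, Uqcr genes, and Cox4 to Cox8 genes). They number 80 of the 54532 genes in the deposited tables, of which 13 are encoded by mitochondrial DNA and 67 by nuclear DNA. Complex I has 7 mitochondrial and 35 nuclear members, complex II has 0 and 4, complex III has 1 and 8, complex IV has 3 and 20, and complex V has 2 and 0. Ndufa4 and Ndufa4l2 are counted in complex IV. The name rule leaves out the nuclear ATP synthase genes and some other respiratory chain genes, which are given separately. After removal of genes with low counts 78 members were tested (13 mitochondrial and 65 nuclear) among 16723 genes. The members left out were Cox8c, with a count of 0 in all 32 libraries, and Cox7b2, with a count of at most 13 in a library.

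Each of the 4 groups had 8 mice, of which 4 were female and 4 male. WT mice given vehicle (WT/Veh) or D-45113 (WT/D-45113) were set beside 5xFAD mice given vehicle (5xFAD/Veh) or the compound (5xFAD/D-45113). 5xFAD mice carry transgenes of familial AD under Thy1 sequences, which are active in neurons. D-45113 is a hydroxyl dendrimer (HD) that carries an inhibitor of the tyrosine kinase CSF1R, and mice received 200 mg/kg of it IP on 2 occasions a week over 4 weeks, beginning at 11 months. The vehicle groups of both genotypes received the dendrimer itself, so all 32 sequenced mice were given HD, alone or with the inhibitor. Total counts ranged from 10707410 to 30368498 per library (median 18092669), and the lowest were those of 5xFAD/D-45113 3F and 4F. Thy1 was above every WT library in 14 of 16 5xFAD libraries. It was not in 5xFAD/D-45113 1M (440.0 CPM) and 4F (528 CPM), against at most 537 CPM in WT libraries. The main results are also given without these libraries. Summed microglia markers were at least 1118 CPM in every 5xFAD/D-45113 library, 1M and 4F among them. In WT libraries they were at most 656 CPM with vehicle and 731 CPM with D-45113. CPM stands for counts per 1000000 of the total count of a library, and FPKM for the deposited values per length of the gene. Because the tissue was sequenced in bulk, fewer cells of a type and less RNA per cell cannot be told apart.

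Oxidative phosphorylation is the main source of ATP in neurons. Complexes I to IV pass electrons from NADH and succinate to oxygen and (except for complex II) pump protons across the inner mitochondrial membrane, and complex V uses the gradient to make ATP. Mitochondrial DNA is transcribed from both strands as long precursor RNAs that are cut mostly at the tRNAs between the genes. mt-Atp8 with mt-Atp6, and mt-Nd4l with mt-Nd4, overlap and have no tRNA between them, so each pair shares an RNA. The nuclear subunits are transcribed from separate promoters, translated in the cytosol and imported, so that a working complex needs both genomes.

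A run of mitochondrial genes has near-identical copies in the nuclear genome. They are shown because reads from such pairs can be placed on either gene. The unprocessed pseudogenes Gm28661, Gm10925, Gm28437, Gm28438, Gm10222 and Gm28439, with Gm29216, lie next to each other on the minus strand of chr1:24611535-24616197 (mm10) and match mt-Co2, mt-Atp6, mt-Co3, mt-Nd3, mt-Nd4l, mt-Nd4 and mt-Co1 in that order. The whole transcript of the copy Gm10222 (294 bases) was identical to mt-Nd4l, a membrane subunit of complex I with a coding exon at MT:9877-10173 on the plus strand. Its bases from the GENCODE transcripts are given here, in lower case where the copy shares them and in capitals for the 3 last bases that the copy does not have.
mt-Nd4l: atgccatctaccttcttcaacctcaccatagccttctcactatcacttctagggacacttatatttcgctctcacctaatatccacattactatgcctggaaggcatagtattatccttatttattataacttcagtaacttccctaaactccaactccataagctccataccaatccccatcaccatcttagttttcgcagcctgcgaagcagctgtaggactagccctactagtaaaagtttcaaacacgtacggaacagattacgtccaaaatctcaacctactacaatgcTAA
The first 33 bases of mt-Nd3, another membrane subunit of complex I (MT:9459-9491, plus strand), and of its copy Gm28438 (chr1:24613087-24613119, minus strand) hold the only difference between them, T3C, counted from the first base of the gene and shown in capitals.
mt-Nd3: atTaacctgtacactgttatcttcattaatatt
Gm28438: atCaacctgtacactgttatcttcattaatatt
Identity was 100% over 681 bases for mt-Co2, over 678 bases for mt-Atp6, over 783 bases for mt-Co3 and over 876 of the 1378 bases of mt-Nd4. For mt-Nd3 it was 99.7% over 345 bases, and for mt-Co1 99.8% over 483 of 1545 bases. Levels of these genes are therefore uncertain. In all, 9 of 13 mitochondrial and 18 of 67 nuclear members had a transcript of another gene that was at least 95% identical over at least 100 bases. Such a match covered 90% or more of the gene for 6 mitochondrial and 0 nuclear members. For mt-Atp8 there was 0 such match among annotated transcripts. This gene lies between mt-Co2 and mt-Atp6, and the 233 bases between their copies on chromosome 1 hold no annotated transcript of a copy and were not compared. Neighbouring mitochondrial genes also overlap, by 43 bases for mt-Atp8 and mt-Atp6, by 7 for mt-Nd4l and mt-Nd4 and by 14 for mt-Nd5 and mt-Nd6, which lie on opposite strands. The use of strand in the counting is not stated in these sources.

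The promoters of 53 of the 67 nuclear members were found among the RefSeq promoter sequences (GRCm38.p6), with 250 bases before and 50 after the start. They were searched for sites of NRF1, the transcription factor known for its role in the expression of respiratory chain genes. The promoters of Cox6a1 and Ndufa8, the nuclear members of complexes IV and I with the highest FPKM, both hold such a site. The 250 bases before their starts are given with the NRF1 matches in capitals (chr5:115348959-115349208 and chr2:36049339-36049588, both on the minus strand).
Cox6a1 promoter: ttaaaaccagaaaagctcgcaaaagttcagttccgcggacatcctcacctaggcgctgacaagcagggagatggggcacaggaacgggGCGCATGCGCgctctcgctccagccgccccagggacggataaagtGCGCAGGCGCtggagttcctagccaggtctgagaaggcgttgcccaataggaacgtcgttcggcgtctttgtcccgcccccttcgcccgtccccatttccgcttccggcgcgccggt
Ndufa8 promoter: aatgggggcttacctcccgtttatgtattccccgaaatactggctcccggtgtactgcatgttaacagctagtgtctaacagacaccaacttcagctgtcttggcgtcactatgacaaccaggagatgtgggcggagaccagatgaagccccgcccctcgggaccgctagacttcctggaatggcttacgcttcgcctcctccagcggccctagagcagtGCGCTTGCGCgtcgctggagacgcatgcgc
The letters GCGCA, any base and GCGC (GCGC, any base and TGCGC on the other strand) were found for 11 of 53 members (20.8%) and for 5.19% of all 27025 genes with a promoter sequence. The members were Cox6a1, Ndufa11, Ndufa5, Ndufa6, Ndufa8, Ndufb4, Ndufs5, Ndufs6, Sdha, Sdhd and Uqcrc1. The ETS letters ACTTCCGG or CCGGAAGT were found for 4 of 53 members (7.55%) and 4.31% of all genes, and the ESRRA letters TCAAGGTCA or TGACCTTGA for 1 of 53 (1.89%) and 0.466%. None of these motifs contains another. A match describes the sequence and does not show that a factor binds.

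Together, the 13 mitochondrial members took a much larger share of the RNA than the 67 nuclear ones. In WT/Veh the mitochondrial members held 5.40% (lowest, 2M), 8.57% (median) and 11.4% (highest, 3F) of the total count. In WT/D-45113 the share was 5.19% (2F), 8.17% and 9.31% (1F). The medians in both 5xFAD groups were lower, but all groups overlapped. In 5xFAD/Veh the lowest, median and highest were 5.63% (3F), 7.24% and 8.33% (4F), and in 5xFAD/D-45113 5.67% (1F), 6.98% and 9.53% (3F). The median was thus 0.953 times that of WT/Veh in WT/D-45113, 0.845 times in 5xFAD/Veh and 0.814 times in 5xFAD/D-45113. The exact (Clopper-Pearson) 95% interval of a library's share was at most 0.208% of its value to each side, which covers counting error only, so the spread between mice is far larger.

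The nuclear members had close to the same share in all groups. Their lowest, median and highest shares were 0.480% (1F), 0.616% and 0.885% (4M) in WT/Veh. In WT/D-45113 they were 0.486%, 0.613% and 0.778%, and in 5xFAD/Veh 0.516%, 0.613% and 0.775%. For 5xFAD/D-45113 they were 0.512%, 0.652% and 0.967%, and the highest library was 4F, 1 of the shallow libraries and of those with low Thy1. Without 1M and 4F the nuclear shares of 5xFAD/D-45113 were 0.512%, 0.648% and 0.758%, and its mitochondrial median was 6.58%. The ratio of the mitochondrial to the nuclear sum had medians of 12.9 in WT/Veh, 13.8 in WT/D-45113, then 11.5 in 5xFAD/Veh, and finally 10.6 in 5xFAD/D-45113. Single libraries ranged from 6.66 (WT/D-45113 2F) to 17.1 (WT/D-45113 1F), so the extremes of all 32 lay in the same group. The nuclear median of 5xFAD/D-45113 was 1.06 times that of WT/Veh, and with other scalings or FPKM 0.960 to 1.07 times. These sums were not tested.

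**Figure D1:**
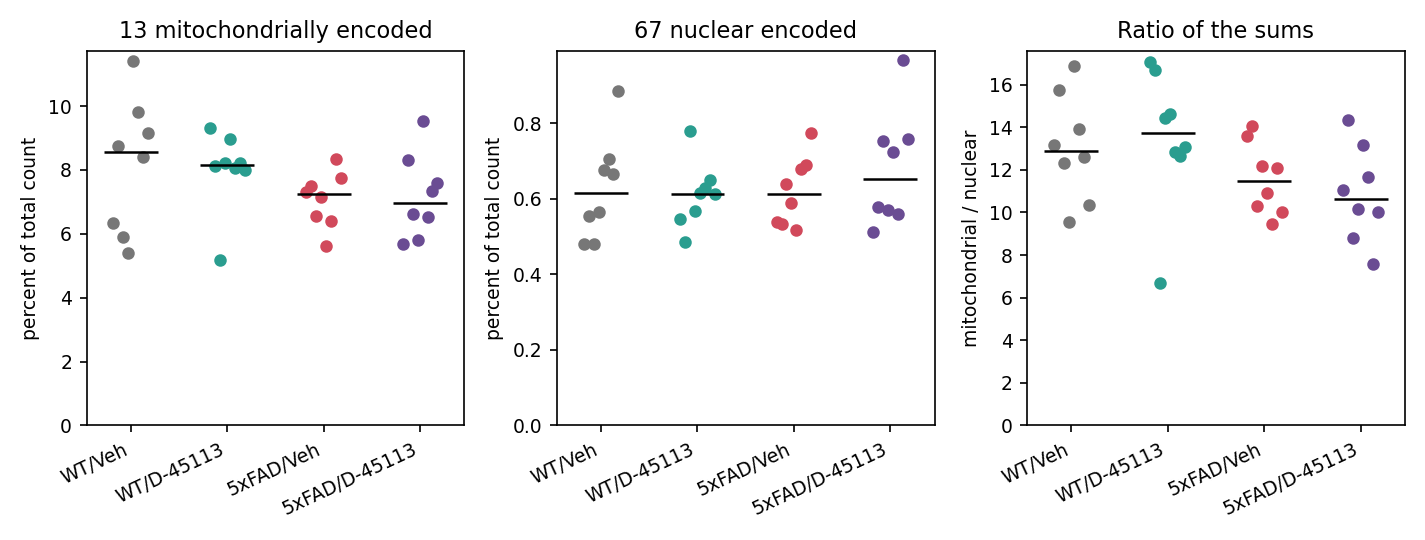
Each point is a library and each line the median of a group of 8. From left to right, the percent of the total count on the 13 mitochondrial members, the same on the 67 nuclear members, and the ratio of both, each on an axis that starts at 0; the groups overlap in each plot, and the ratio medians run from 10.6 to 13.8.

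In 5xFAD/Veh against WT/Veh, 0 of 78 members were called at an adjusted p under 0.05 (edgeR's quasi-likelihood test, and 0 with DESeq2), where 3.86% of all genes tested were. At an unadjusted p under 0.05 there was 1 member, Cox8b, against 11.1% of all genes. The log2 fold change was negative for all 13 mitochondrial members (median -0.26), and 21 of 65 nuclear members had a positive one, with a median of -0.04. The median over all genes was -0.02. Without WT/Veh 4M the nuclear median was 0.05. In the same contrast thalamus markers were positive in 0 of 14 cases (median -0.88) and choroid plexus markers in 0 of 16 (-1.72). Markers of hippocampal neurons were positive in 13 of 16, and 0 genes of these 3 lists were called. Of 16 microglia markers 16 were called higher, and of 10 astrocyte markers 2. The part of these cell types in the members' values was not tested. The mitochondrial values ran from -0.67 for mt-Co3, a core subunit of complex IV (SE 0.33, adjusted p = 0.454 with edgeR), to -0.08 for mt-Nd3. The median SE of a mitochondrial member was about the size of these values (0.18). Among nuclear members with the smallest p, the complex I genes were represented by Ndufa12 (log2 fold change 0.43, adjusted p = 0.615). The others were the muscle-type isoforms of complex IV subunits Cox6a2 (0.26) and Cox7a1 (-1.05), the lung isoform Cox4i2 (-0.50) and Cox7c (0.12), with adjusted p-values from 0.513 to 0.903.

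D-45113 in WT mice gave 0 called members with edgeR and with DESeq2, where 0.0239% of all genes (4 genes) were called with edgeR. At an unadjusted p under 0.05 there was 1 member, against 6.81% of all genes. The median log2 fold change was -0.03 for mitochondrial and -0.05 for nuclear members, and 6 of 13 and 22 of 65 values were positive. The mitochondrial median was above 0 without WT/Veh 3F (0.09), without WT/D-45113 2F (0.09) and without WT/Veh 1M (0.02), and the nuclear one without WT/Veh 4M (0.03). The nuclear median was 0.14 with females only and -0.29 with males only, and the mitochondrial one -0.10 and 0.01, a difference between the sexes that was not tested. The member with the smallest p was mt-Nd6, the complex I subunit that is the only protein gene on the light strand of mitochondrial DNA. It had 1220 (lowest), 1690 (median) and 2572 CPM (highest) in WT/Veh, and 1822, 2285 and 3157 CPM in WT/D-45113. All 8 WT/D-45113 libraries were above the WT/Veh median, and the ranges overlapped. The log2 fold change was 0.44 (SE 0.18, adjusted p = 0.641 with edgeR). In 5xFAD mice mt-Nd6 had 1396, 1597 and 2021 CPM with vehicle and 1488, 1755 and 4049 CPM with D-45113 (log2 fold change 0.38, adjusted p = 0.224 with edgeR). The highest value was that of 5xFAD/D-45113 1M, which has low Thy1, and without 1M and 4F the log2 fold change was 0.26 (adjusted p = 0.508 with edgeR). Nuclear members with the smallest p in WT mice were Cox7a1 (-1.13, adjusted p = 0.748), Cox6b2, the testis isoform of Cox6b1 (-0.81), Ndufa1 (-0.45), Ndufb2 (0.19), Uqcrc2, a core subunit of complex III (0.07), and Cox8b (0.52).

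In 5xFAD mice D-45113 gave 0 called members with edgeR, where 3.96% of all genes were called. DESeq2 called 2, with Cox8b higher (adjusted p = 0.0314) and mt-Nd4l lower (adjusted p = 0.0498). At an unadjusted p under 0.05 there were 5 members, against 19.9% of all genes, of which mt-Nd4l, mt-Co2 and mt-Nd6 are mitochondrial and Cox8b and Ndufb5 are nuclear. The medians lay on opposite sides of 0, with -0.18 for the mitochondrial members (3 of 13 positive) and 0.09 for the nuclear members (48 of 65 positive), where the median over all genes was 0.01. The nuclear median was 0.34 with females only and -0.09 with males only (16 of 65 positive), a difference that was not tested. It was 0.01 without the libraries of low Thy1. Without the 2 shallowest libraries it was -0.04 (24 of 65 positive), and without 5xFAD/D-45113 4F -0.01 (32 of 65 positive). The value of mt-Nd4l was -1.07 (SE 0.36, adjusted p = 0.0883 with edgeR), and -0.97 without the libraries of low Thy1 (adjusted p = 0.255). Ndufb5, a subunit of the membrane arm of complex I, had 79.3, 99.5 and 125 CPM (lowest, median, highest) in 5xFAD/Veh and 87.4, 118 and 191 CPM in 5xFAD/D-45113, and the ranges overlapped (log2 fold change 0.33, adjusted p = 0.241 with edgeR). Its highest library was 5xFAD/D-45113 4F, and without 1M and 4F the log2 fold change was 0.23 (adjusted p = 0.580 with edgeR). Other nuclear members with the smallest p were Ndufb2 (0.27), Ndufa12 (-0.44), Ndufa5 (-0.08) and Ndufa1 (-0.12). Markers of other regions and cell types were measured in the same contrast. Thalamus markers had a positive value in 14 of 14 cases (4 called higher), with sums of 568 to 2543 CPM with D-45113 and 329 to 790 CPM with vehicle. Choroid plexus markers were positive in 16 of 16 (1 called higher), with sums of 335 to 10293 CPM and 318 to 1490 CPM. Markers of hippocampal neurons were negative in 16 of 16 (1 called lower), with sums of 3266 to 8035 CPM and 5465 to 10101 CPM. Microglia markers were also negative in 16 of 16 (5 called lower), with sums of 1118 to 1813 CPM and 1612 to 2208 CPM. Astrocyte markers were positive in 7 of 10 (2 called higher). With 0 called, positive values numbered 12 of 13 for pericytes and smooth muscle, 8 of 10 for oligodendrocytes and 7 of 7 for ependymal cells. They numbered 6 of 10 for endothelium, 5 of 5 for blood and 5 of 9 for parvalbumin interneurons, also with 0 called. The part of these cell types in the members' values was not tested.

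The comparison of 5xFAD/D-45113 with WT/D-45113 gave 2 called members, mt-Nd4l and mt-Atp6, both lower in 5xFAD/D-45113. They are 2 of 78 members, where 5.06% of all genes were called (1.35% lower). At an unadjusted p under 0.05 there were 6 members, all mitochondrial and lower, where 18.3% of all genes passed. All 13 mitochondrial members had a negative log2 fold change (median -0.41), and 58 of 65 nuclear members a positive one (median 0.09). The median over all genes was 0.02, and 52.6% of all genes were positive. Without the 2 shallowest libraries the nuclear median was -0.03, and 23 of 65 nuclear members were positive. Without those of low Thy1 the nuclear median was 0.05 and the mitochondrial one -0.41. Most nuclear members varied together across libraries, so these sign counts are not counts of separate observations. This comparison and that of 5xFAD/D-45113 with 5xFAD/Veh share the 5xFAD/D-45113 mice.

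In WT/D-45113, mt-Nd4l had 10.2 (2F, lowest), 46.7 (median) and 100.03 CPM (2M, highest). In 5xFAD/D-45113 it had 11.4 (2M), 17.3 and 32.1 CPM (4M). All but 1 of the WT/D-45113 libraries (7 of 8) were above the highest 5xFAD/D-45113 library, and the exception, 2F, was the lowest of both groups. WT/Veh libraries had 22.7, 38.5 and 111 CPM, and 5xFAD/Veh libraries 25.6, 31.97 and 92.4 CPM. The log2 fold change between 5xFAD/D-45113 and WT/D-45113 was -1.44 (SE 0.37, adjusted p = 0.0162 with edgeR). Without WT/D-45113 2M it was -1.21 and the call was lost (adjusted p = 0.0536). Without the 5xFAD/D-45113 libraries of low Thy1 (1M and 4F) it was -1.34 (adjusted p = 0.0778), and without the 2 shallowest libraries -1.36 (adjusted p = 0.0751).

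For mt-Atp6, the proton channel subunit of complex V, WT/D-45113 libraries had 209 (2F), 369 and 557 CPM (3F). The 5xFAD/D-45113 libraries had 84.3 (2M), 232 and 320 CPM (4M). Of the WT/D-45113 libraries 6 of 8 lay above all of 5xFAD/D-45113, and 3 of the latter (1F, 2M and 4F) lay below all of WT/D-45113. WT/Veh had 188, 335 and 692 CPM and 5xFAD/Veh had 175, 256 and 406 CPM. The log2 fold change was -1.03 (SE 0.29, adjusted p = 0.0325 with edgeR). The mt-Atp6 call was lost without any single one of WT/D-45113 2M, 3F, 3M and 4M and 5xFAD/D-45113 1F, 2M and 4F, with log2 fold changes from -1.02 to -0.91 and adjusted p-values from 0.0535 to 0.0757. Without 1M and 4F of 5xFAD/D-45113, mt-Atp6 had -0.95 (adjusted p = 0.111), and without the 2 shallowest libraries -0.95 (adjusted p = 0.112).

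The other mitochondrial members under an unadjusted p of 0.05 were mt-Atp8 (log2 fold change -0.85, adjusted p = 0.103 with edgeR), the electron-accepting complex IV subunit mt-Co2 (-0.62, adjusted p = 0.161), and the complex I subunits mt-Nd2 (-0.41, adjusted p = 0.152) and mt-Nd4 (-0.32, adjusted p = 0.227). For mt-Co2 the medians were 398, 370, 364 and 264 CPM in WT/Veh, WT/D-45113, then 5xFAD/Veh and lastly 5xFAD/D-45113. In nuclear members the smallest p belonged to Cox6a2 (0.55, adjusted p = 0.301), Ndufv3 (0.30, adjusted p = 0.345) and Cox7a1 (0.85, adjusted p = 0.466) among positive values. The negative values with the smallest p were close to 0, at -0.06 for Ndufs1, -0.04 for Ndufs7 and -0.05 for Cox4i2. The nuclear medians by complex were 0.09 for complex I, 0.11 for complex II, 0.08 for complex III and 0.12 for complex IV.

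**Figure D2:**
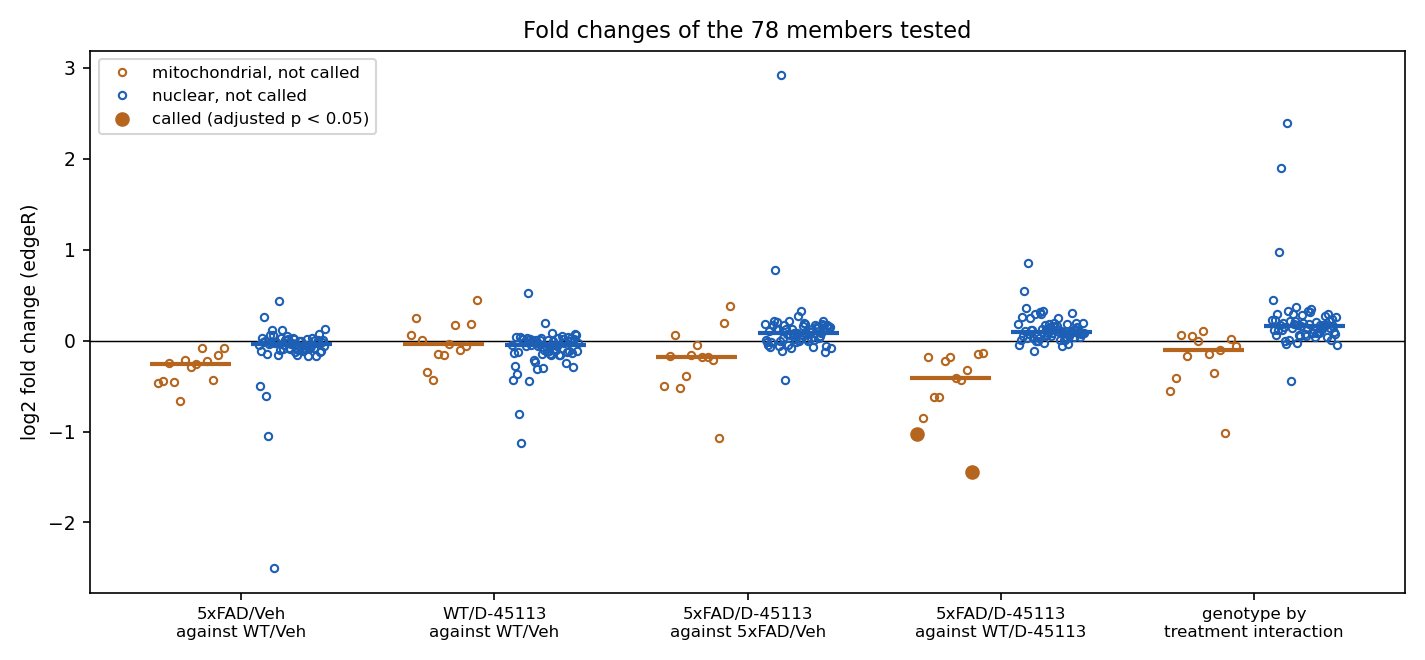
Log2 fold changes from edgeR (vertical axis) of the 13 mitochondrial and 65 nuclear members in the 5 comparisons (horizontal axis); filled points are called at an adjusted p under 0.05 and bars are medians. The 2 filled points are mt-Nd4l (-1.44) and mt-Atp6 (-1.03) in 5xFAD/D-45113 against WT/D-45113, where the mitochondrial median is -0.41 and the nuclear one 0.09.

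Markers of other regions and cell types were measured in the same libraries. Of 14 thalamus markers, 12 had a positive log2 fold change in 5xFAD/D-45113 against WT/D-45113 and 0 were called, and their summed level ranged from 568 to 2543 CPM in 5xFAD/D-45113 and from 383 to 2435 CPM in WT/D-45113. Of 16 markers of hippocampal neurons 15 had a negative value and 0 were called, with sums from 3266 to 8035 CPM and from 5521 to 9595 CPM in the same order. Of 16 choroid plexus markers 16 were positive and 0 were called, with sums from 335 to 10293 CPM and from 266 to 6436 CPM. Of 16 microglia markers 12 were called higher, with sums from 1118 to 1813 CPM and from 448 to 731 CPM. Astrocyte markers were positive in 9 of 10 cases (2 called higher), and those of pericytes and smooth muscle in 10 of 13 (1 called higher). With 0 called, positive values numbered 9 of 10 for oligodendrocytes, 7 of 7 for ependymal cells and 8 of 10 for endothelium. They numbered 5 of 5 for blood and 5 of 9 for parvalbumin interneurons, also with 0 called. No marker of these lists was at 0 in every library. With scores of thalamus and choroid plexus in the model, mt-Nd4l had a log2 fold change of -1.15 (adjusted p = 0.0768 with edgeR) and mt-Atp6 of -0.86 (adjusted p = 0.0948), so 0 members were called. The part of these cell types in the result was not tested further.

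Genotype and treatment together gave 0 called members in the interaction with edgeR and with DESeq2, where 0% of all genes were called (edgeR, 0 of 16723). At an unadjusted p under 0.05 there was 1 member, Cox7a1, against 9.51% of all genes. The median was -0.10 for mitochondrial members (4 of 13 positive) and 0.16 for nuclear members (60 of 65 positive). Over all genes it was 0.02. In this contrast choroid plexus markers were positive in 16 of 16 cases (median 2.13) and thalamus markers in 14 of 14 (1.32). Markers of hippocampal neurons were negative in 15 of 16 (median -0.85) and microglia markers in 16 of 16 (-0.45). Of these markers 0 were called, and their part in the members' values was not tested. Cox7a1 had 0.193, 0.939 and 3.14 CPM (lowest, median, highest) in WT/Veh and 0.143, 0.515 and 1.12 CPM in WT/D-45113. In 5xFAD mice it had 0, 0.711 and 0.827 CPM with vehicle and 0.216, 0.739 and 1.87 CPM with D-45113. At such levels a library holds few reads of the gene, and its interaction was 1.90 (adjusted p = 0.443 with edgeR), or 1.53 without the libraries of low Thy1. The nuclear median of the interaction was then 0.09. The other nuclear members with the smallest p were Cox8b (2.39), Cox6b2 (0.97), Ndufa12 (-0.44), the complex III subunit Uqcrq (-0.05) and Cox8a (-0.04). In each of the 4 comparisons between groups 0 members had CPM ranges that did not overlap. Over all genes tested this was so for 2.28% in 5xFAD/Veh against WT/Veh, 0.0299% in WT/D-45113 against WT/Veh, 0.478% in 5xFAD/D-45113 against 5xFAD/Veh and 1.23% in 5xFAD/D-45113 against WT/D-45113.

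The 2 called genes belong to a stretch of mitochondrial DNA that was counted at low levels. From mt-Co2 through mt-Atp8, mt-Atp6, mt-Co3 and mt-Nd3 to mt-Nd4l, the 6 genes had a mean FPKM of 10.7 (mt-Atp8) to 552 (mt-Co2). The 7 others had 3822 (mt-Nd5) to 20743 (mt-Co1). Except for mt-Atp8, the genes of the stretch match chromosome 1 copies over nearly their whole length, so their levels are uncertain. mt-Nd4l had a mean FPKM of 135, and mt-Nd4, which shares an RNA with it, 5022. Their log2 fold changes in 5xFAD/D-45113 against WT/D-45113 were -1.44 and -0.32. The part of read placement in these low counts and fold changes was not tested. The share of the stretch in the total count had medians of 0.151% in WT/Veh, 0.134% in WT/D-45113, then 0.104% in 5xFAD/Veh, and finally 0.0821% in 5xFAD/D-45113. The log2 fold changes in 5xFAD/D-45113 against WT/D-45113 had a median of -0.74 in the stretch (-1.44 to -0.43) and of -0.18 in the 7 others (-0.41 to -0.14). The stretch was picked after seeing the data, and its fold changes were not tested as a set.

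**Figure D3:**
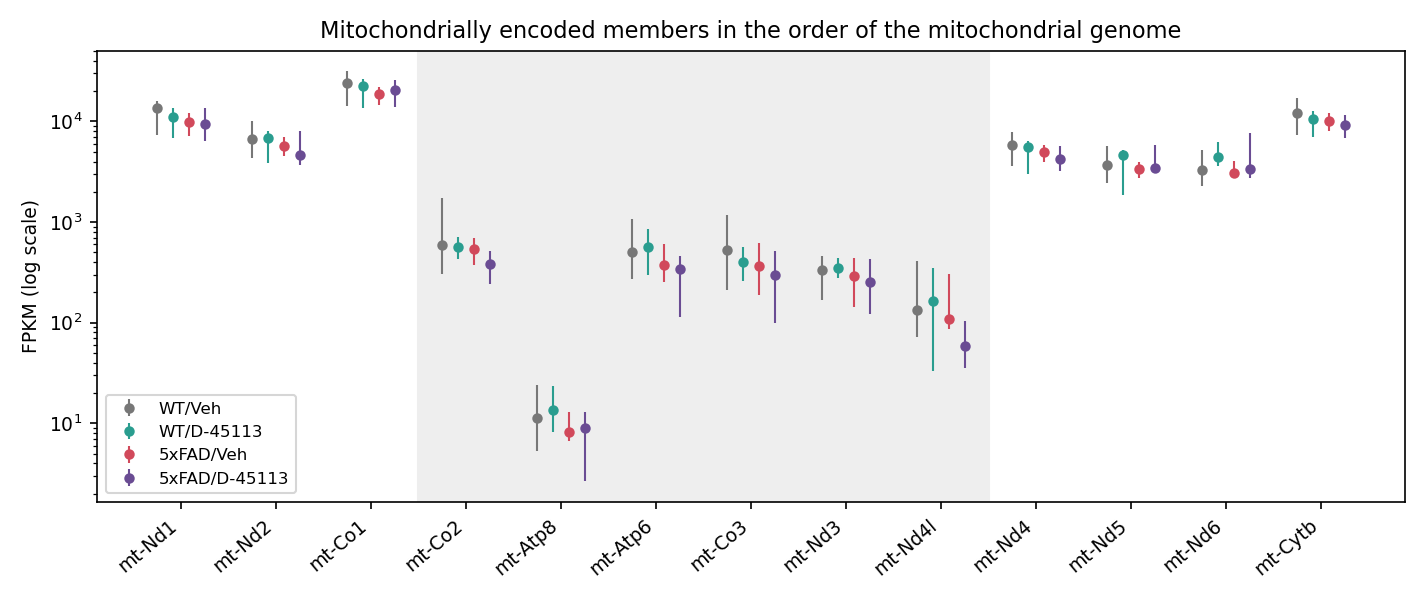
FPKM on a log axis of the 13 mitochondrial members in the order of their positions on mitochondrial DNA, by group; the grey band marks the stretch from mt-Co2 to mt-Nd4l. The 6 genes in the band have mean FPKM values of 10.7 to 552 and the 7 others of 3822 to 20743.

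Some of the chromosome 1 copies were also lower. In 5xFAD/D-45113 against WT/D-45113, 4 of the 7 copies were called, all lower, where 5.06% of all genes were called (1.35% lower). As near-identical neighbours of the members' sequences, the copies are not separate observations. Those called were Gm28439, the copy of mt-Nd4 (log2 fold change -1.30, adjusted p = 0.0032 with edgeR), Gm10925, that of mt-Atp6 (-1.10, adjusted p = 0.0111), Gm28438, that of mt-Nd3 (-1.63, adjusted p = 0.0132), and Gm10222, that of mt-Nd4l (-1.23, adjusted p = 0.0227). Median levels of Gm10222 were 24.4, 29.96, 20.4 and 10.5 CPM in WT/Veh, WT/D-45113, then 5xFAD/Veh and lastly 5xFAD/D-45113. Those of Gm10925 were 270.1, 289, 226 and 146 CPM. Of the counts of such a pair, mt-Nd4l held a median of 61.3% to 62.5% in the 4 groups and mt-Atp6 53.5% to 55.7%, and the identical sequences give no means of telling the 2 genes apart. mt-Nd3, which differs from its copy at a single base, held medians of 91.0% to 96.5%. When the counts of gene and copy were summed, an alternative chosen after seeing the data, mt-Nd4l had -1.36 (adjusted p = 0.0155 with edgeR) and mt-Atp6 -1.06 (adjusted p = 0.0178). Both genes kept their call in this fit. Gm10222 and Gm10925 were themselves called lower, so the summed fit gives no separate support for the calls. It also does not show from which gene of a pair the reads came. In 5xFAD/D-45113 against 5xFAD/Veh 1 copy was called, Gm28439, which was lower (-0.998, SE 0.28, adjusted p = 0.0349 with edgeR), where 3.96% of all genes were called.

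**Figure D4:**
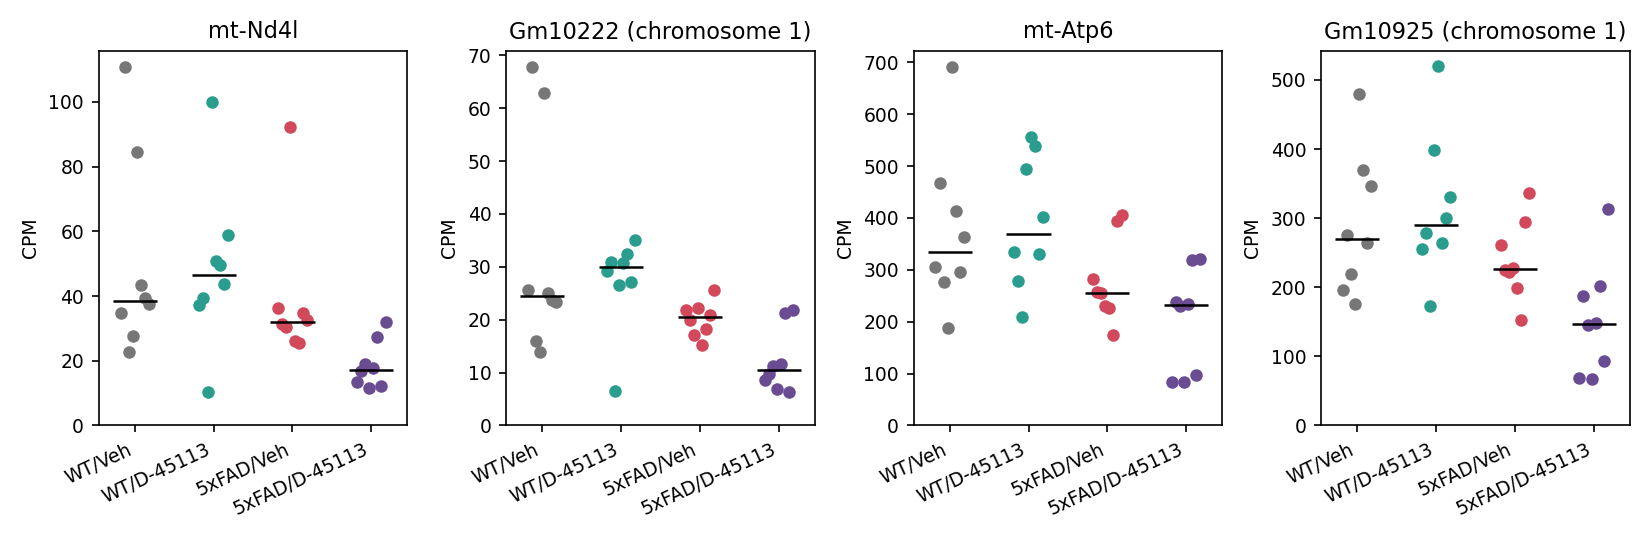
CPM of mt-Nd4l, its chromosome 1 copy Gm10222, mt-Atp6 and its copy Gm10925, each point a library and each line the median of a group of 8, on axes that start at 0. The medians of 5xFAD/D-45113 are the lowest of the 4 groups in all 4 plots (17.3, 10.5, 232 and 146 CPM).

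Nuclear members differed widely in level. On the FPKM scale, which is per length, the highest and lowest means of the members tested were 86.4 for Ndufa8 and 2.76 for Ndufb2 in complex I, 96.3 for Sdha, the catalytic subunit, and 37.3 for the membrane anchor Sdhc in complex II, 116 for Uqcr10 and 36.8 for Uqcrb in complex III, and 470.5 for Cox6a1 and 1.49 for Cox7a1 in complex IV. In complex IV, in which Ndufa4 and Ndufa4l2 are counted, some genes exist in isoform pairs. Of these the form widely expressed in the body was the main one here. The share of the second isoform in the pair's FPKM was 0.928% for Cox4i2 (with Cox4i1), 1.60% for Cox6a2 (with Cox6a1), 1.496% for Cox6b2 (with Cox6b1), 1.21% for Cox7a1 (with Cox7a2), 1.02% for Cox7b2 (with Cox7b), 1.26% for Cox8b (with Cox8a) and 2.30% for Ndufa4l2 (with Ndufa4). Between libraries, the coefficient of variation of CPM had a median of 28.1% in mitochondrial members (19.3% for mt-Cytb to 64.9% for mt-Nd4l) and of 24.6% in nuclear members (9.22% for Ndufs1, of the electron-transfer arm of complex I, to 133% for Cox8b).

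Most nuclear members varied together across libraries. Each was compared with the summed level of the other 64, and 56 of 65 had a Pearson r over 0.5 across the 32 libraries (median 0.85). The lowest r were those of Ndufs1 (0.03), Cox4i2 (0.04), Ndufa4l2 (0.14) and Ndufa10 (0.18). The first principal component of the 65 members held 53.7% of their variance. Of the mitochondrial members 12 of 13 had r over 0.5 (median 0.74), and mt-Nd6 had 0.33. These values share the libraries and their depth and are descriptions. Counts of positive or negative members in any contrast are therefore not counts of separate observations.

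A total of 10 relations across the 32 libraries were computed on log2 values, with permutation tests and Benjamini-Hochberg adjustment over the 10. The mitochondrial and nuclear sums had r = 0.27 (permutation p = 0.137, adjusted p = 0.229) and rho = 0.30 (permutation p = 0.093, adjusted p = 0.155), and r = 0.38 without WT/Veh 3F and WT/D-45113 2F, which lay farthest from the median. Within groups r was 0.70 in WT/Veh, -0.73 in WT/D-45113, then 0.43 in 5xFAD/Veh, and finally 0.45 in 5xFAD/D-45113, so the relation did not hold in all of them. The value in WT/D-45113 rests on 2F, without which (left out after seeing the data) r was -0.12 over 7 libraries. The nuclear sum followed that of the nuclear ATP synthase genes, which are no members (r = 0.96, rho = 0.97, permutation p = 1e-05 for both, the smallest these permutations can give, adjusted p = 2.5e-05 and 3.33e-05; r = 0.95 without 2 libraries; 0.96 to 0.99 within groups). The mitochondrial sum followed the mitochondrial rRNA genes (r = 0.72, permutation p = 1e-05, adjusted p = 2.5e-05; rho = 0.71, permutation p = 2e-05, adjusted p = 5e-05; r = 0.67 without 2 libraries), but in WT/D-45113 r was only 0.14, against 0.75 to 0.87 in the other groups. The stretch from mt-Co2 to mt-Nd4l had r = 0.77 with the other mitochondrial members (rho = 0.73, permutation p = 1e-05 for both, adjusted p = 2.5e-05 and 3.33e-05; r = 0.75 without 2 libraries; 0.65 to 0.93 within groups). The stretch was picked after seeing these data, so its p-values are descriptions only. Depth had r = -0.22 with the mitochondrial sum (permutation p = 0.225, adjusted p = 0.322) and r = -0.16 with the nuclear sum (permutation p = 0.377, adjusted p = 0.461). The thalamus score had r = -0.06 and 0.15 with the same sums (adjusted p = 0.737 and 0.461 from permutation tests), and mt-Nd6 had r = 0.33 with the other mitochondrial members (permutation p = 0.0664, adjusted p = 0.133).

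Cox8b, the heart and skeletal muscle isoform of a complex IV subunit, varied with the choroid plexus gene Ttr. It had 0.0643 (2M), 0.629 and 7.43 CPM (3F) as lowest, median and highest values in WT/Veh, and 0.447, 1.62 and 9.85 CPM (2F) in WT/D-45113. In 5xFAD/Veh it had 0, 0.255 and 1.25 CPM and in 5xFAD/D-45113 0, 2.72 and 6.26 CPM (2M). The groups overlapped, and 5xFAD/Veh lacked high libraries. The log2 fold change was -2.50 in 5xFAD/Veh against WT/Veh (SE 0.94, adjusted p = 0.205 with edgeR) and 2.92 in 5xFAD/D-45113 against 5xFAD/Veh (SE 0.95, adjusted p = 0.0752), or 2.49 without the libraries of low Thy1 (adjusted p = 0.229). Ttr, the gene of transthyretin and a marker of the choroid plexus, had medians of 224, 813, 124 and 696 CPM in WT/Veh, WT/D-45113, then 5xFAD/Veh and lastly 5xFAD/D-45113, and correlated with Cox8b over the 32 libraries (r = 0.89, rho = 0.89, permutation p = 1e-05 for both, adjusted p = 2.5e-05 and 3.33e-05; r = 0.87 without 2 libraries). Within groups r was 0.97, 0.79, 0.70 and 0.95 in the same order. Cox8b was the most variable nuclear member tested, and Ttr comes from a list chosen with earlier results of these data known. The p-values of this pair are therefore descriptions. Sums of the 16 choroid plexus markers ranged from 338 to 5314 CPM in WT/Veh, from 266 to 6436 CPM in WT/D-45113, from 318 to 1490 CPM in 5xFAD/Veh and from 335 to 10293 CPM in 5xFAD/D-45113. The part of choroid plexus in the Cox8b values was not tested further.

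**Figure D5:**
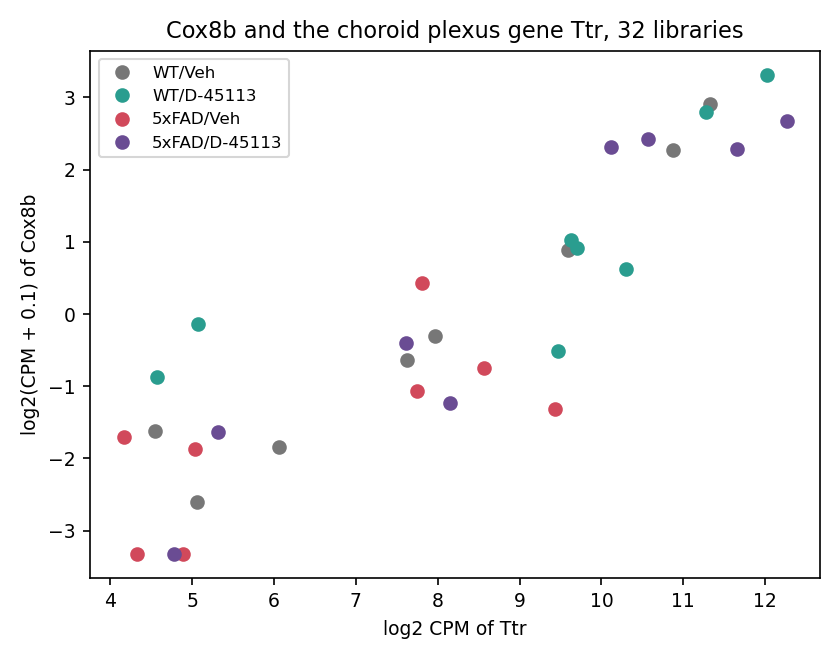
Each point is a library, coloured by group: log2 CPM of Ttr on the horizontal axis and log2(CPM + 0.1) of Cox8b on the vertical axis. Libraries with more Ttr have more Cox8b (r = 0.89).

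Genes of the same pathway outside the name rule were counted from lists. Of 19 nuclear ATP synthase genes, 44 assembly factors, 12 other respiratory chain genes and 18 mitochondrial rRNA and tRNA genes tested, 0 were called in any of the 5 comparisons (edgeR). Over all genes 3.86% were called in 5xFAD/Veh against WT/Veh, 0.0239% in WT/D-45113 against WT/Veh and 3.96% in 5xFAD/D-45113 against 5xFAD/Veh. The share was 5.06% in 5xFAD/D-45113 against WT/D-45113 and 0% in the interaction. Calls named below are of single genes, and the lists were not tested as sets. The ATP synthase medians were -0.03, -0.04, 0.06, 0.07 and 0.09 in the order of the comparisons above. Of 20 glycolysis genes, Hk2, a hexokinase, was higher in 5xFAD/Veh against WT/Veh (log2 fold change 1.22, adjusted p = 5.21e-06) and in 5xFAD/D-45113 than in WT/D-45113 (0.76, adjusted p = 0.00669). The glucose transporter gene Slc2a1 was higher in 5xFAD/D-45113 against 5xFAD/Veh (0.55, adjusted p = 0.0393), and Pfkl, a phosphofructokinase, was lower in 5xFAD/D-45113 than in WT/D-45113 (-0.42, adjusted p = 0.0449). Of 21 genes of the tricarboxylic acid cycle, Idh2 was higher with D-45113 in 5xFAD mice (0.54, adjusted p = 0.0468) and Suclg2 in 5xFAD/D-45113 against WT/D-45113 (0.47, adjusted p = 0.0421). Of 34 factors of mitochondrial DNA and RNA, Polg, the catalytic subunit of the mitochondrial DNA polymerase, was lower in 5xFAD/D-45113 than in WT/D-45113 (-0.33, adjusted p = 0.0325). Of 15 regulators of mitochondrial biogenesis, Ppara, a nuclear receptor, was lower in 5xFAD/Veh than in WT/Veh (-0.88, adjusted p = 0.0212). In WT/D-45113 against WT/Veh and in the interaction 0 genes of these lists were called. Results of the alternatives were taken for the members only. Whether the calls of list genes hold under them, or without single libraries, was not tested.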

How the data were processed

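Values were deposited by the authors for 54532 genes in 32 libraries, raw counts and FPKM, and 0 columns of values matched no library. The submitters' processing notes name the build mm10. For the aligner, the counting tool and the use of strand, nothing was stated (not given in the sources used here). These deposited FPKM values equal the authors' counts per gene length and library total, times a factor that was constant over the genes of a library (0.920 to 1.11 between libraries). The count model was fitted with edgeR 4.0.16 (R 4.3.3): filterByExpr kept 16723 genes, TMM gave the scaling, and a quasi-likelihood model of 4 groups gave 5 contrasts, with Benjamini-Hochberg adjustment over all genes and calls at 0.05. The fitting steps were run on simulated counts drawn from the model's own estimates, which does not show how well the model describes these data. Levels are CPM of the total count, and depth ranged from 10707410 to 30368498 counts. Named are the 13 mitochondrial members, the called members, the 3 nuclear members with the smallest p in each direction of each contrast where fewer are called, the highest and lowest of each complex by FPKM, isoform pairs, and up to 3 genes of each pathway list. The members and lists were chosen with earlier results of these data known. Alternatives were DESeq2 1.42.0, limma 3.58.1 (voom, and trend on log2 FPKM with pseudocounts of 1 and 0.1), other scalings, filters, covariates and sample sets, each library left out, and 3 chosen after seeing the data. p-values measure the spread between mice. Genes with copies are named from the reference transcripts, by identity of at least 95% over at least 100 bases. Plots were made in Python 3.11.15 (matplotlib 3.10.9).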

Additional observations from a re-analysis of the deposited data

Results flagged for a closer look

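In 11 of the 88 sets of 8 values looked at, the highest or lowest library stood apart from the other 7 (gap over range above Dixon's 95% critical value, where chance gives about 1 in 20). In WT/D-45113 2F the summed mitochondrial share was 5.19% (next 7.99%), the ratio of mitochondrial to nuclear members 6.66 (next 12.7), mt-Nd4 4267 CPM (next 6871), mt-Nd5 3557 CPM (next 7112) and mt-Co1 21601 CPM (next 32423). mt-Nd4l was 92.4 CPM in 5xFAD/Veh 2M (next 36.3). Cox6a2 was 10.4 CPM in WT/Veh 3M (next 5.46) and 10.4 CPM in 5xFAD/Veh 3M (next 6.92). In WT/Veh 4M, Cox6b2 was 9.54 CPM (next 4.67) and Cox7a1 3.14 CPM (next 1.49). Cox8b was 1.25 CPM in 5xFAD/Veh 4F (next 0.493).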

How the results depend on the processing

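For 5xFAD/D-45113 against WT/D-45113, the number of called members (2) was 1 with no filter on low counts and with limma trend on log2(FPKM + 1) without a filter, and 0 with scores of thalamus and choroid plexus in the model, with females only, with males only, without the 2 shallowest libraries and without the 2 5xFAD/D-45113 libraries of low Thy1. With 1 library left out it was 0 to 3, with 0 without WT/D-45113 2M. For 5xFAD/D-45113 against 5xFAD/Veh the number (0) was 2 with DESeq2, 1 with only the groups compared, and 0 to 1 with 1 library left out. In the other contrasts it was 0 under all alternatives run. mt-Nd4l had log2 fold changes from -1.60 to -1.15 over 50 alternatives and lost its call in 7, and mt-Atp6 had -1.18 to -0.86 and lost its call in 14. The causes were not tested. The mitochondrial median stayed negative in 5xFAD/Veh against WT/Veh (-0.33 to -0.15) and in 5xFAD/D-45113 against WT/D-45113 (-0.54 to -0.26). This was also so in 5xFAD/D-45113 against 5xFAD/Veh (-0.29 to -0.08) and in the interaction (-0.21 to -0.02). In WT/D-45113 against WT/Veh it ranged from -0.11 to 0.09.

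Some small values of named genes that were not called changed sign. With females only this was so for Cox7c (-0.0299) and Cox4i2 (0.0515) in 5xFAD/Veh against WT/Veh, for Ndufa12 (0.15), Ndufa5 (0.22) and Ndufa1 (0.34) in 5xFAD/D-45113 against 5xFAD/Veh, and for Uqcrq (0.20) and Cox8a (0.41) in the interaction. Cox4i2 was 0.25 with males only in 5xFAD/D-45113 against WT/D-45113, and Cox8a was 0.0622 with covariates. With 1 library left out, Cox7c ranged from -0.00198 to 0.20, Cox8b in WT mice from -0.0183 to 1.27, Ndufa5 from -0.20 to 0.0088, Ndufa1 from -0.29 to 0.0060, Ndufs7 from -0.13 to 0.0296, Cox4i2 from -0.17 to 0.13, Uqcrq from -0.21 to 0.0589 and Cox8a from -0.15 to 0.0678.

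With the replicate number as a block, 3 members were called in 5xFAD/D-45113 against WT/D-45113 (mt-Atp6, mt-Nd4l and mt-Co2) and 0 in the other contrasts. Libraries of the same number had correlations of -0.23 to 0.28, and 1 to 3 of 8 correlated best with their own number. Between 1 and 5 of 8 pairs were over 0.1, so not every pair was. The mean nuclear share was lowest at number 1 in all 4 groups (0.516% to 0.545%). Each such mean rests on only a female and a male library. In WT/Veh it was 0.518% at number 1 and 0.523% at number 2. This order was seen in the data and was not tested, and the labels do not say what the numbers stand for.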
